A study of Mus musculus with 4 samples.

Results

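The 9 genes described here encode 6 Toll-like receptors (Tlr2, Tlr4, Tlr7, Tlr8, Tlr9 and Tlr13), the co-receptor Cd14, the adaptor Myd88 and the kinase Irak1. They were followed in RNA pulled down with IGF2BP2 from BMDMs, macrophages cultured from mouse bone marrow. A peak, a stretch of the genome where tags (sequenced fragments) pile up, was counted for a gene where the authors' list names that gene and does not mark the peak as antisense. This gave 11 peaks: 6 of the 15511 peaks of IGF2BP2 immunoprecipitation replicate 1, with 36 tags, and 5 of the 22570 peaks of replicate 2, with 55 tags.

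The study has 2 immunoprecipitation libraries and 2 input libraries from the same kind of cell, and asks which RNAs IGF2BP2 binds there. The inputs were not analysed here. The labels give no genotype, strain, age or stimulus for any group, nor do they tell if the replicates were separate cultures. For the immunoprecipitates, one label names an antibody against IGF2BP2 and another an antibody against the Flag tag. The lists hold no input value and the library depth is unknown, so a tag count is not an enrichment, and binding and abundance of an mRNA cannot be told apart. The lists hold no peak below 3 tags, so a gene without a peak may still have been present.

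Toll-like receptors recognise molecules of microbes. Tlr2 and Tlr4 act at the cell surface, where Cd14 hands lipopolysaccharide to Tlr4, and Tlr7, Tlr8, Tlr9 and Tlr13 act in endosomes, where they meet nucleic acids. Each has an outer part of leucine-rich repeats, a segment that crosses the membrane and a TIR domain inside the cell. Through the TIR domain the receptors in this set recruit MyD88, which gathers IRAK kinases and leads to NF-κB and interferon regulatory factors. IGF2BP2 binds RNA through KH and RRM domains and is known to recognise m6A, the methylated adenosine of mRNAs, for which GGAC is a common sequence setting.

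The sequences below are a selection of exonic stretches, 5′ to 3′ on the transcript strand (GRCm38, from GENCODE transcripts). Each GGAC is in capitals. Most of those printed hold GGAC, so the selection does not show how common it is. Left out, and without GGAC, are the replicate 2 peaks of Tlr13, the Tlr7 peak and the exonic part of the larger Irak1 peak. So are the Myd88 stretches seen in both libraries and at exon 4. The longer Tlr8 peaks and the Myd88 peak on exon 5 hold GGAC and are also left out. The first lies in Tlr8 peaks of both libraries, and the next is the other Tlr8 peak of replicate 1. The Tlr13 stretch is the whole peak of replicate 1. The Irak1 stretch is the exonic part of a replicate 2 peak. The Myd88 stretches are peaks of replicate 2 that the authors' list names for another gene.
Tlr8, both libraries, chrX:167243321-167243425, minus strand: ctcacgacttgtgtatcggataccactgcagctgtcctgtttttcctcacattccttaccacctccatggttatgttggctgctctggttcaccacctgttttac
Tlr8, replicate 1, chrX:167243936-167244077, minus strand: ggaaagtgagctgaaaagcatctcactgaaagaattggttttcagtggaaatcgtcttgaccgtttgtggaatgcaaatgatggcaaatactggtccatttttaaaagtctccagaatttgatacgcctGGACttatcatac
Tlr13, replicate 1, chrX:106156997-106157206, plus strand: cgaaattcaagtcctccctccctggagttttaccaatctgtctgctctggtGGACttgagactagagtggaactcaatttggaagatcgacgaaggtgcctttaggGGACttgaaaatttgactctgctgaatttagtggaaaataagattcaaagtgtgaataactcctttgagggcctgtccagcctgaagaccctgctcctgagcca
Irak1, replicate 2, chrX:74020328-74020535, minus strand: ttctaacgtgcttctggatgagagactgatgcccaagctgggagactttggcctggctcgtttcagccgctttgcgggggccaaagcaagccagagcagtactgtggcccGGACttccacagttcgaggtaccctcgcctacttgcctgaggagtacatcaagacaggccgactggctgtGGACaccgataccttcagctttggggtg
Myd88 exon 1, replicate 2, chr9:119339632-119339821, minus strand: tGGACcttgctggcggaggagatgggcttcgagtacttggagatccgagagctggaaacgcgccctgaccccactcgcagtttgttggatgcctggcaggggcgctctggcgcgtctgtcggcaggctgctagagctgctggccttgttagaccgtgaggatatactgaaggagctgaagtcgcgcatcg
Myd88 exon 2, replicate 2, chr9:119338659-119338710, minus strand: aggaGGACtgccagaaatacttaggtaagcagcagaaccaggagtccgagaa

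Tlr8 and Tlr13 had peaks in both libraries. Tlr4 and Tlr7 had peaks in replicate 1 only, Irak1 had peaks in replicate 2 only, and Tlr2, Tlr9, Cd14 and Myd88 had none in either list under this rule. The members with a peak were thus 4 of 9 in replicate 1, where 22.1% of all protein-coding genes had one, 3 of 9 in replicate 2, against 26.8%, and 2 of 9 in both, against 17.1%. Among the endosomal receptors, Tlr7, Tlr8 and Tlr13 each had at least 1 exonic peak and Tlr9 had none. Cd14 and the surface receptors of this set had none in an exon of their principal transcript. That split holds for the members only: outside them, the surface receptor Tlr1 had 1 peak mainly in coding sequence, in replicate 2. These are counts of single libraries, and no test of the difference between the receptor groups was made.

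**Figure D1:**
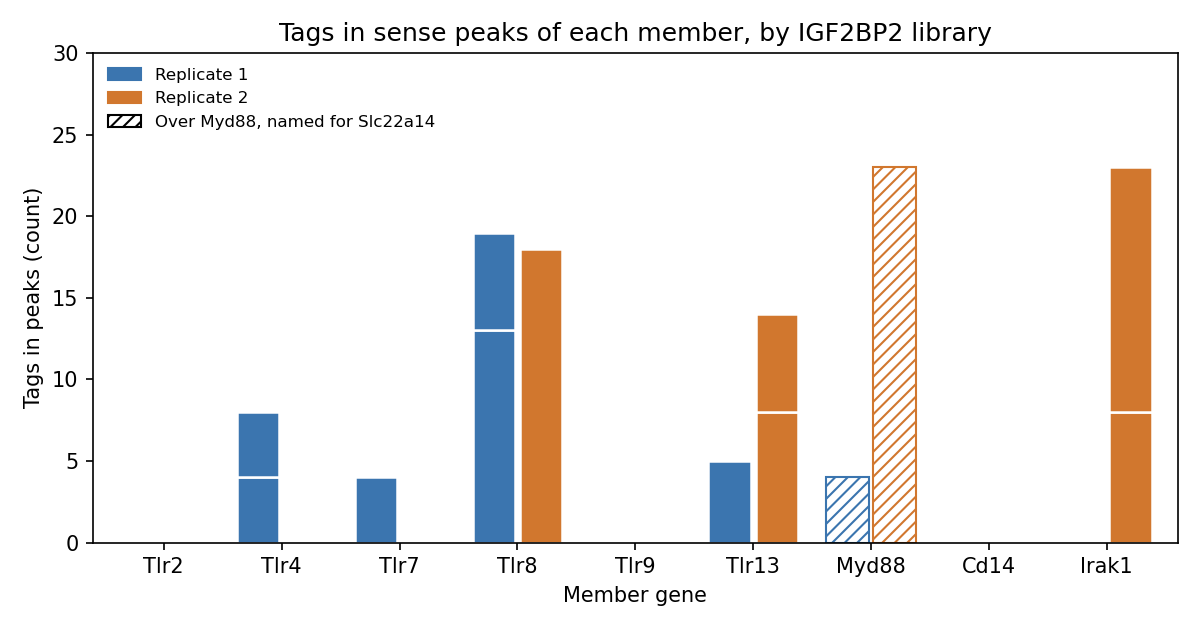
Bars give the tags (count) in sense peaks of each of the 9 members in replicate 1 and replicate 2, stacked by peak, with 1 library per bar and no error. Tlr8 has 19 and 18 tags, not scaled between libraries, where replicate 2 over replicate 1 was 1.83 over all nuclear protein-coding genes. Irak1 is in replicate 2 only (23), and hatched bars show the 4 and 23 tags that lie over Myd88 but are named for Slc22a14.

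Tlr8, an endosomal receptor closely related to Tlr7, was the 1 member with overlapping peaks in both libraries. It had 19 tags in replicate 1, in peaks of 13 and 6 tags, and 18 tags in replicate 2, in 1 peak. Replicate 2 over replicate 1 was 0.947 (exact 95% interval 0.469 to 1.91), against 1.83 over all nuclear protein-coding genes (two-sided exact binomial test, adjusted p = 0.110). With summed maximum heights in place of tags, Tlr8 passed the same exact test (adjusted p = 0.0469). The replicate 2 peak and the larger replicate 1 peak were of middle to upper strength: 81.3% and 78.2% of the peaks of their libraries had fewer tags.

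All 3 Tlr8 peaks lay in exon 3 of 3 (the gene is at chrX:167242696-167264329, minus strand), wholly in coding sequence. In replicate 1 they covered codons 592 to 639 and 810 to 965 of 1032, and in replicate 2 codons 659 to 844. The larger peak of replicate 1 (chrX:167242960-167243425) and the peak of replicate 2 (chrX:167243321-167243876) overlapped over 105 nt, the first sequence printed above. That is 22.5% of the former and 18.9% of the latter. The stretch spans codons 810 to 844, around the membrane-crossing segment. The summits, the points of highest coverage, were 201 nt apart. The smaller replicate 1 peak ended 59 nt short of the replicate 2 peak. Of the overlapping peaks, the replicate 1 summit lay inside the replicate 2 peak, but the replicate 2 summit lay outside the replicate 1 peak. The peaks of the libraries thus lay near one another in the exon and coincided over a small share of their length.

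A further peak of 18 tags in replicate 2 (chrX:167241652-167242065, minus strand) began 631 nt past the end of Tlr8 as GENCODE draws it. The authors called it intergenic. RefSeq's Tlr8 gene on the same build extends to 167241123 and includes it, and counting it would raise Tlr8 to 36 tags in replicate 2. No replicate 1 peak overlapped it.

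Tlr13, a mouse receptor for bacterial ribosomal RNA, had 5 tags in 1 peak in replicate 1 and 14 tags in 2 peaks in replicate 2. Replicate 2 over replicate 1 was 2.80 (exact 95% interval 0.953 to 9.93), which did not differ from the ratio over all genes by more than counting error (exact binomial test, adjusted p = 0.584). Each peak lay wholly in coding sequence of exon 3 of 3 (gene at chrX:106143204-106160493, plus strand). The replicate 1 peak covered codons 113 to 183 of 991, and the replicate 2 peaks codons 278 to 357, with 8 tags, and 721 to 767, with 6 tags. The replicate 1 peak was 284 nt from the nearer of the replicate 2 peaks. Tlr13 was therefore present in both lists without a position in common. Of the peaks of their libraries, 27.1%, 42.4% and 24.3% had fewer tags than these, so none was above the median.

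**Figure D2:**
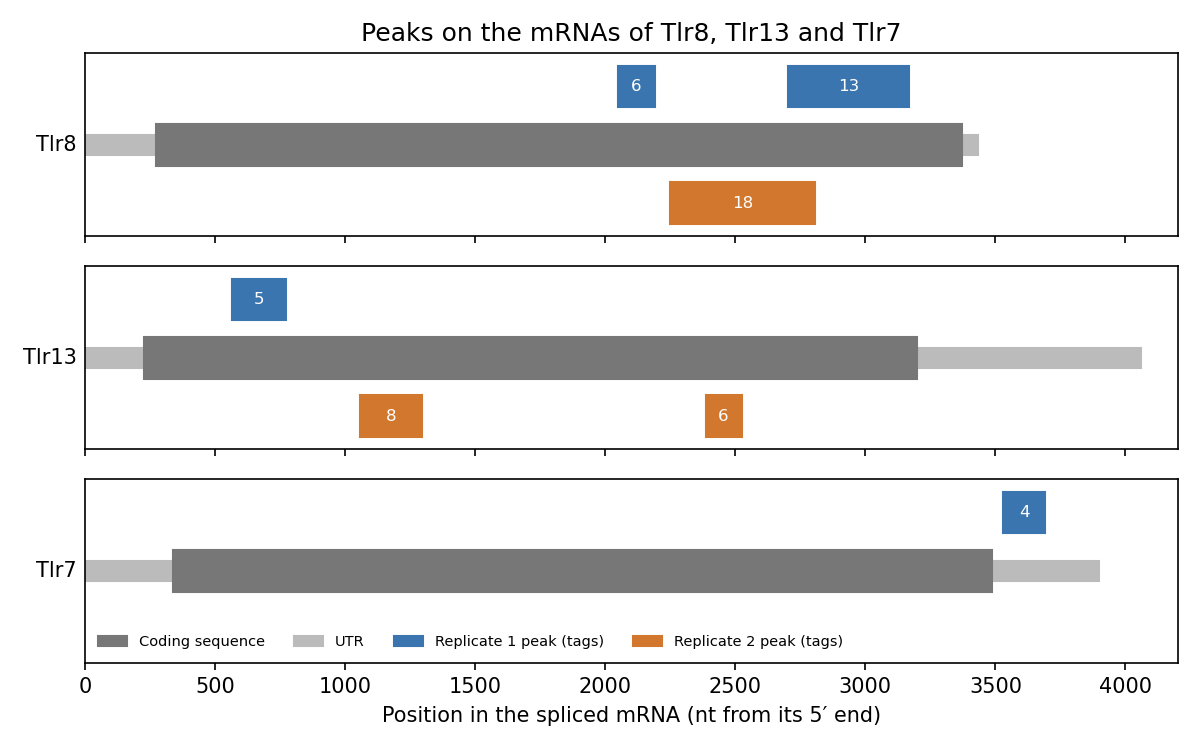
Peaks of replicate 1 (above each mRNA) and replicate 2 (below) are drawn along the spliced principal transcripts of Tlr8, Tlr13 and Tlr7, in nt from the 5′ end, with tags written on each peak. The Tlr8 peaks of 13 and 18 tags overlap in part, the Tlr13 peaks (5, 8 and 6 tags) lie apart, and the Tlr7 peak (4 tags) lies past the coding sequence.

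Tlr7, which senses single-stranded RNA and lies next to Tlr8 on the X chromosome, had 1 peak of 4 tags in replicate 1 (chrX:167305135-167305295, minus strand) and none in replicate 2. It was in the 3′ UTR, in exon 5 of 5, and began after 40 nt of 3′ UTR. Of the replicate 1 peaks, 5.52% had fewer tags, so it was close to the lowest count listed. It was the single member peak in a UTR. Tlr9, the receptor for unmethylated CpG DNA, had no sense peak. Replicate 1 listed 1 antisense peak of 3 tags for it, which the rule leaves out.

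Tlr4, the lipopolysaccharide receptor, had 8 tags in replicate 1, in 2 peaks of 4 tags each, and no peak in replicate 2. The authors' annotation placed both in an intron. They lay on chromosome 4 at 66842880 to 66842986 and 66843682 to 66843848 (plus strand), which is 80 and 882 nt past the end of the principal transcript at 66842800. GENCODE has an intron there because another Tlr4 transcript runs on to 66930284, while RefSeq ends the gene at 66846581, beyond both peaks. The Tlr4 tags thus lay downstream of the last exon of the principal transcript and not between its coding exons. Tlr2, the lipopeptide receptor, and Cd14 had no peak named for them on either strand in either library. On their own strand, no peak had its midpoint within their GENCODE or RefSeq gene span.

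Irak1, the kinase recruited by MyD88, had 23 tags in replicate 2, in peaks of 15 and 8 tags, and no peak in replicate 1. This was the highest total of a member in 1 library under the authors' naming of peaks, though not with peaks given to genes by position, where Myd88 also had 23 and, by RefSeq spans, Tlr8 had 36. The peak of 15 tags (chrX:74022446-74022740, minus strand) was 64.1% exonic, covering exon 5 of 14 whole (codons 181 to 243 of 710) and intron on both sides. The peak of 8 tags (chrX:74020328-74020571) was 85.2% exonic, in exon 9, with its 3′ end exactly at the exon's last base. Its exonic part, printed above, encodes codons 343 to 412, within the kinase domain. Irak1 was the member with peaks that cross from exon to intron.

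Counting a gene without a listed peak as 0 tags, the libraries differed for Irak1 (adjusted p = 0.000590), Tlr4 (adjusted p = 0.00144) and Tlr7 (adjusted p = 0.0402) by the exact binomial test. The same test called 53.5% of the 3409 genes listed in 1 library only. Over all 7243 genes it called 17.6% higher in replicate 2 and 23.1% higher in replicate 1. Such a call was thus common, and tags below the lowest listed count are not seen. With 2 tags assumed for an unlisted gene, an alternative chosen after seeing the data, the Tlr7 call ended (exact binomial test, adjusted p = 0.382). Tlr7 also lost it with the median ratio as expectation (adjusted p = 0.0502, exact) and with summed maximum heights (adjusted p = 0.0518, exact).

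Myd88, the adaptor shared by these receptors, had no peak named for it, yet 5 peaks on its strand lay within its span (chr9:119335934-119341411, minus strand). The authors' list names all of them for introns of Slc22a14, a solute carrier gene, whose longest GENCODE transcript runs over Myd88 on the same strand (chr9:119169455-119365553). RefSeq ends Slc22a14 at 119190430, short of Myd88. Replicate 1 had 1 such peak, with 4 tags, and replicate 2 had 4, with 4, 6, 4 and 9 tags, 23 in all. They were part of the 4 and 14 peaks named for Slc22a14.

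Of these 5 peaks, 4 lay wholly in Myd88 exons. One position was in both libraries: chr9:119339632-119339793 with 4 tags in replicate 1 and chr9:119339632-119339821 with 9 tags in replicate 2. The replicate 1 peak lay wholly inside the other, with summits 28 nt apart. Both ended at the last base of Myd88 exon 1, inside coding sequence (codons 47 to 110 of 296 in replicate 2), which encodes most of the death domain. A replicate 2 peak of 4 tags began at the first base of exon 2, so that these peaks join without a gap in the spliced mRNA, at its positions 221 to 410 and 411 to 462. Another of 4 tags began at the first base of exon 5 (codons 246 to 278, in the TIR domain). The remaining peak, of 6 tags, had 37 of its 160 nt in exon 4 and the others in the intron after it.

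A peak bound fell exactly on a Myd88 exon bound in 1 of 1 peaks of replicate 1 and 3 of 4 of replicate 2. None fell on a Slc22a14 exon bound, but that was fixed beforehand. The authors' list places these peaks wholly in introns of Slc22a14. Of all peaks, 36.9% in replicate 1 and 36% in replicate 2 had a bound on an inner exon bound of some gene's principal transcript. Such cases were few in the lists: 1.45% and 1.44% of peaks given to introns had their midpoint in an exon of another protein-coding gene on that strand. With peaks given to genes by position, Myd88 had 4 and 23 tags, and 3 members in place of 2 had peaks in both libraries.

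**Figure D3:**
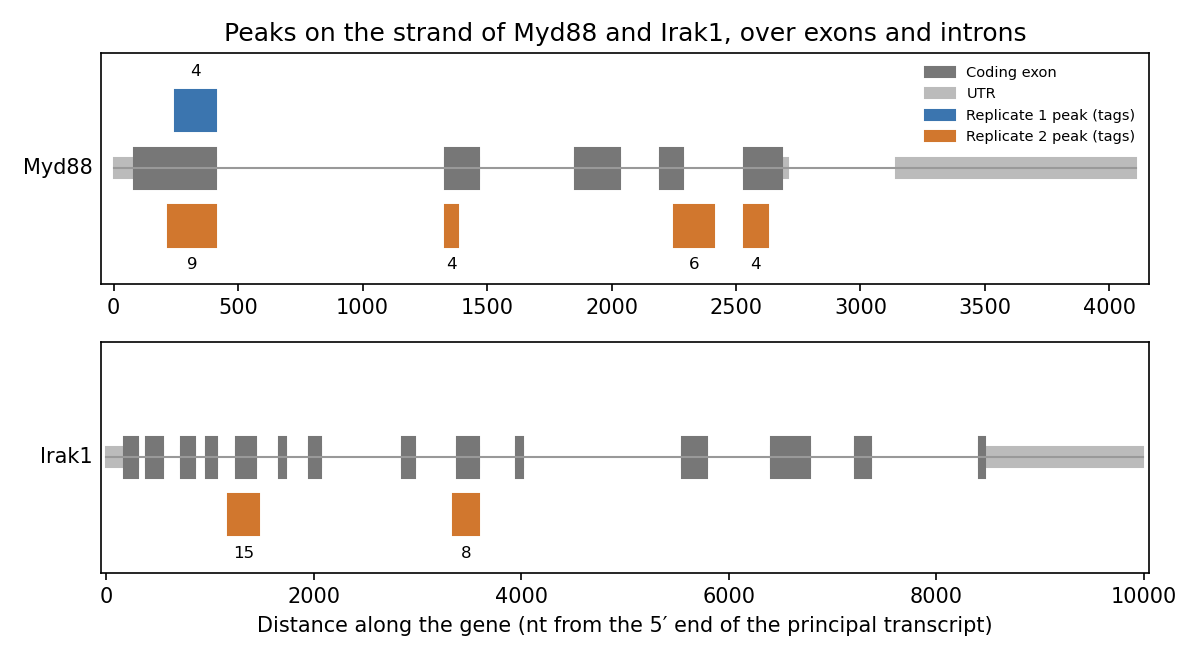
Peaks on the strand of Myd88 (named for Slc22a14 by the authors) and Irak1 are drawn by distance (nt) from the 5′ end of the principal transcript, replicate 1 above and replicate 2 below, with tags beside each peak. The Myd88 peaks of 4 and 9 tags end where exon 1 ends, and the Irak1 peaks of 15 and 8 tags reach past exons 5 and 9.

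Per length of exon, replicate 1 had Tlr8 first with 5.54 tags per kb (exact Poisson 95% interval 3.33 to 8.65). Tlr4 had 1.96 (0.847 to 3.87), Tlr13 1.23 (0.400 to 2.87) and Tlr7 1.03 (0.280 to 2.63). No Tlr4 tag lay in an exon of its principal transcript, so with exonic peaks only Tlr4 had no tags, and by gene span or maximum height it was at place 4. The last 3 overlapped one another widely, and the interval of Tlr4 also overlapped that of Tlr8. In replicate 2, Irak1 had 6.01 tags per kb (3.81 to 9.02), Tlr8 5.25 (3.11 to 8.29) and Tlr13 3.45 (1.89 to 5.79), with neighbours that did not differ beyond counting error. The intervals cover counting error only, since each rests on the count of 1 library and takes its tags as independent. The lists hold no molecular identifiers, so repeated copies of a molecule cannot be told apart. Tlr8 thus had more than 5 tags per kb in both libraries, without scaling between them.

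By region, coding sequence held 3 of 6 member peaks in replicate 1, against 40.8% of all peaks, and 5 of 5 in replicate 2, against 38.4%. Introns, by the authors' annotation, held 2 of 6 and 0 of 5, against 32.9% and 35.4% of all peaks. The exact 95% intervals of the coding share were 11.8% to 88.2% and 47.8% to 100%. One peak per library, the Tlr8 pair, was overlapped in the other library, which is 16.7% and 20% of the member peaks against 34.8% and 23.6% of all peaks. With so few peaks these shares did not differ from those of all peaks beyond counting error, apart from the coding share of replicate 2. Its interval lay above the share of all peaks, but it takes the peaks as independent. Those 5 peaks came from 3 genes of a list chosen with results known, so no excess can be read from it. By RefSeq spans replicate 2 had 10 member peaks, the added ones intron or intergenic by the authors' annotation. Most of those over Myd88 lay in its exons, so the coding share depends on the annotation used.

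GGAC was searched on the transcript strand of the 7 member peaks that lie within 1 exon. It was present in 4 of them: once in each Tlr8 peak, though not in the 105 nt that both libraries share, and at 2 places in the Tlr13 peak of replicate 1. The replicate 2 peaks of Tlr13 and the Tlr7 peak did not hold it. Over all peaks within 1 exon, 51.9% in replicate 1 and 51.6% in replicate 2 held GGAC. Among peaks within 10% of their own length, the share was 63.1% for the Tlr13 peak in replicate 1, 50.8% for the shorter Tlr8 peak and 84.8% for the longer. For the Tlr8 peak of replicate 2 it was 89.4%. For the peaks without GGAC it was 63.2% and 50.2% for the Tlr13 peaks of replicate 2, and 53.1% for the Tlr7 peak of replicate 1. At the length of the shared Tlr8 stretch it was 42.8% in replicate 1 and 39.3% in replicate 2. The exonic part of the Irak1 peak of 8 tags held GGAC at 2 places, that of the peak of 15 tags at none. Of replicate 2 peaks of like length, 60.8% and 58.9% held it. Over Myd88, the replicate 2 peaks on exons 1, 2 and 5 held it once each, where 59.2%, 23.2% and 35.0% of peaks of like length in that library did. The 162 nt of exon 1 seen in both libraries and the exonic part of the peak at exon 4 did not hold it. At the length of the former, 52.8% of replicate 1 peaks and 53.8% of replicate 2 peaks did. At that of the latter, 13.2% of replicate 2 peaks did.

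Of 62 further genes of the pathway, 29 had a peak in both libraries (46.8%, against 17.1% of all protein-coding genes), 5 in replicate 1 only, 9 in replicate 2 only and 19 in neither. Of the 6 other Toll-like receptors none had a peak in both, and 5 had none in either. Tlr1, named after its values were seen, had 12 tags in replicate 2. They lay in 2 peaks, 1 mainly in coding sequence and 1 mainly in an intron. Co-receptors and proteins that fold or move the receptors had 8 of 11. They include Cd36 (180 and 364 tags in replicates 1 and 2), a co-receptor of Tlr2, the chaperone gene Hsp90b1 (204 and 314), and Unc93b1 (136 and 188), which escorts the endosomal receptors. Nrros (78 and 200) and Cd180 (81 and 114), a receptor relative, completed the 5 with most tags. The lipopolysaccharide-binding partners Ly96 and Lbp had no peak, nor had Tril.

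Among adaptors beyond Myd88, 1 of 5 had peaks in both libraries: Pik3ap1, which links receptors to PI3-kinase, with 84 and 298 tags. Kinases and ubiquitin ligases had 11 of 19, led by Tab2 (22 and 60 tags), Ikbkb (31 and 43), Ikbke (12 and 61), Traf3 (19 and 27) and Ube2v1 (18 and 13). Transcription factors had 4 of 9: Nfkb1 (104 and 142 tags), Irf5 (36 and 115), Rel (14 and 29) and Relb (4 and 12). Negative regulators had 5 of 12: Tollip (48 and 51 tags), Usp25 (20 and 18), Dusp1 (10 and 27), Cyld (15 and 16) and Tank (8 and 18). These totals are not per length, so they do not rank the genes. They include intronic peaks, 4 of 5 for Traf3 and 2 of 2 for Relb, while Cyld and Dusp1 had 0. Peaks overlapped between libraries in 7 of 11 co-receptor and trafficking genes, 1 of 5 adaptors and 3 of 19 kinases and ligases. They did so in 2 of 9 transcription factors and 3 of 12 negative regulators, against 9.12% of all protein-coding genes.

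**Figure D4:**
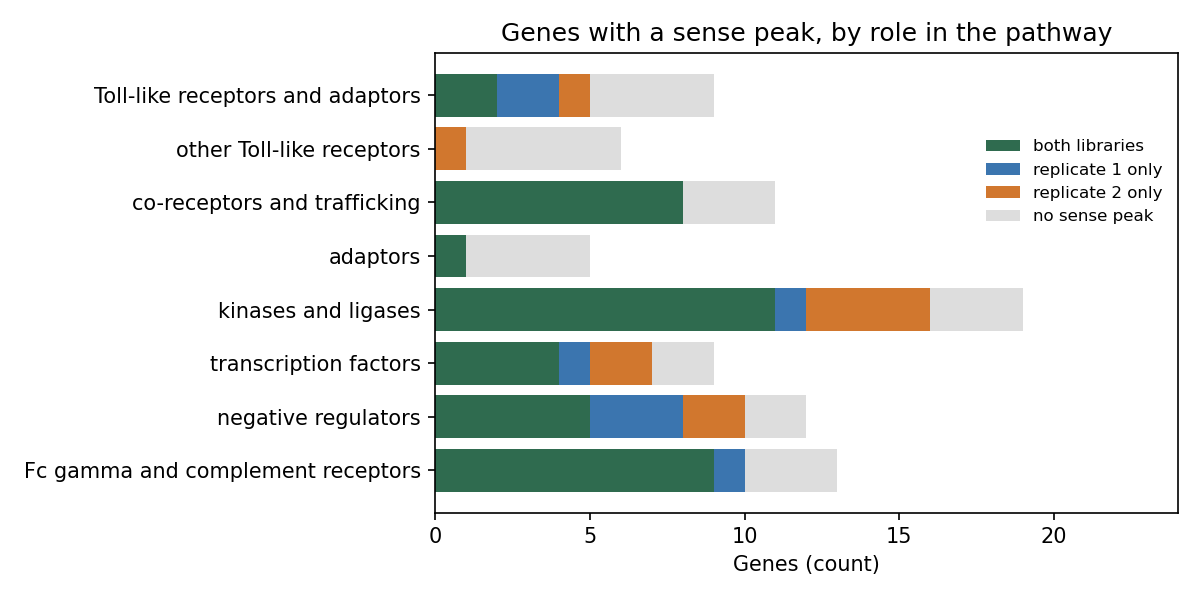
Horizontal bars count the genes of each list with a sense peak in both libraries, in replicate 1 only, in replicate 2 only or in neither. The members have 2 of 9 in both, co-receptors and trafficking genes 8 of 11 and Fc gamma and complement receptors 9 of 13.

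Another set of macrophage surface receptors, those for antibodies and complement, had 9 of 13 genes with peaks in both libraries, and 8 had peaks that overlapped between them, against 1 of the 9 members. Across all protein-coding genes 9.12% had overlapping peaks in both. The set held 45 peaks in replicate 1 and 49 in replicate 2, led by Itgb2 (201 and 256 tags) and Itgam (150 and 281). The difference from the members was not tested. Macrophage markers were present, with 6 of 10 in both libraries, among them Mrc1, Csf1r and Adgre1. Of 35 markers of 7 other cell types, 3 had a peak in replicate 1 and 1 in replicate 2, none in both, with at most 9 and 10 tags.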

How the data were processed

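IGF2BP2-bound RNA was analysed from 1 peak list for each of the 2 immunoprecipitation libraries. The authors deposited, per the file headers, a whole tag count for each peak, without normalization, and a maximum height, a coverage signal. Per the submitters' processing notes, bcl2fastq, TopHat2 and GRCm38 were used. The peak caller and its threshold were not given in the sources used here. Tags in peaks summed to 189393 and 324456, which is not a library depth.

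The deposited starts were taken as counted from 0: they lay 1 nt before an inner exon start in 3931 and 5609 peaks and on it in 10 and 23, while ends lay on exon ends in 3974 and 5648. All positions here are therefore 1-based, from start plus 1. Genes came from the authors' identifiers (99.7% and 99.8% matched GENCODE M21), and exons, codons and sequences from its principal transcripts. RefSeq gene spans (GRCm38.p6) were compared with them. The principal transcript was the one ranked first by APPRIS, then by coding and total length. Peaks overlapped when they shared at least 1 bp on 1 strand.

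The replicate test was a two-sided exact binomial test of each gene's tags, with Benjamini-Hochberg adjustment over 7243 genes. It was run on simulated counts drawn from the same binomial model, which does not check it beyond counting error. The replicate test compares 2 libraries, whose replicates may be technical, and not conditions. Python 3.11.15, numpy 2.4.6, pandas 2.3.3, scipy 1.17.1, statsmodels 0.14.6 and matplotlib 3.10.9 were used.

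The members and lists were chosen with earlier results of these data known. All members are named, and in the other lists up to 5 genes with peaks in both libraries, by summed tags; Tlr1, Ly96, Lbp, Tril and Slc22a14 were added after their values were seen. Lrrc33 was matched as Nrros. No set test was made.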

Additional observations from a re-analysis of the deposited data

How the results depend on the processing

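No paired analysis was possible because peak lists of 1 group only, the immunoprecipitates, were used here, so no groups were compared. With at least 6 tags, 2 peaks and 19 tags were left in replicate 1, and all 5 peaks and 55 tags in replicate 2. With at least 10 tags, 1 peak and 13 tags were left in replicate 1, and 2 peaks and 33 tags in replicate 2. Members with a peak in both libraries fell to 1, Tlr8, under either minimum and with the stronger 50% of each list. Taken alone, replicate 1 had 4 members with a peak and replicate 2 had 3, counts that include the members in both. Giving peaks to genes by position moved the replicate 2 peaks to 9 by GENCODE spans and to 10, with 96 tags, by RefSeq spans, a choice made after seeing the data. With overlap of at least 50% of both peaks, 0 member peaks of replicate 1 and 0 of replicate 2 were overlapped, against 23.8% and 16.3% of all peaks. Tlr13 moved from place 3 to place 2 in replicate 1 by tags over the gene span, by maximum height and by exonic peaks only, and Tlr8 kept place 1 and place 2 in these settings. Tlr4 moved from place 2 to place 4 in replicate 1 by gene span and maximum height, and Tlr7 from place 4 to place 3 in all 3 settings. The replicate test called 3 members and 2945 genes. It called 0 members and 1032 genes when only genes with peaks in both libraries entered, which leaves out the 3 called members, and 1828 genes with 2 tags for an unlisted gene. Library depth is unknown, and 4 of the 6 member peaks of replicate 1 had 4 or 5 tags.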

Other observations

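With the peaks over Myd88 moved to it from Slc22a14, a choice made after seeing the data, Myd88 had 4 and 23 tags. The exact binomial test did not call a difference between the libraries (adjusted p = 0.0635, threshold 0.05). With so few tags, that does not show that they agree.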
